A study of Mus musculus with 6 samples.

Results

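Immediate early genes are switched on within minutes of a stimulus, without new protein synthesis, and their transcripts are short-lived. Growth factor, stress and cAMP signals reach them through MAP kinases and through the transcription factors SRF, the ETS-type ternary complex factors and CREB at their promoters. Their products are mostly transcription factors of the AP-1 and EGR families and phosphatases that end the signal. In dissected tissue they are also known to respond to handling, such as the time between death and RNA preservation.

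The immediate early genes described here were taken from a list of 10: Fos, Fosb, Jun, Junb, Egr1, Egr2, Ier2, Ier3, Atf3 and Dusp1. A probe set, a group of probes on the array read together for a transcript, was a member where the platform annotation gave it exactly 1 gene symbol equal to a listed name. This gave 8 of 41420 probe sets, covering 7 of the 10 genes, with 2 probe sets for Egr2 and 1 each for Fos, Fosb, Jun, Ier3, Atf3 and Dusp1. Junb, Egr1 and Ier2 were not analysed here. The rule itself used no measured value.

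The samples were whole uteri of intact, 2-week-old females: 3 Affymetrix arrays came from Arid1a f/f mice and 3 from Arid1a d/d mice. The Arid1a protein binds DNA as part of SWI/SNF, a complex that remodels chromatin. By convention f denotes a floxed allele and d a deleted one. The labels name neither the Cre driver nor the strain and do not say whether uteri were pooled, whether each array stands for its own animal, or how long tissue waited before extraction. The p-values therefore rest only on how these samples vary, and that variation may be technical. The study, by its title, is about how endometrial glands depend on Arid1a. Here the early genes are compared between the genotypes.

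Values are log2 of the deposited intensity. The median over all probe sets and arrays was 2.69. Values near or below it are taken here as background, which limits what a probe set can show. No detection call was used, so this cutoff is a convention. Any pair of arrays correlated at 0.987 to 0.995 over all probe sets. Array d/d 1 stood apart from its genotype. Its closest f/f array correlated with it at 0.995, against 0.9901 with d/d 2 and 0.9905 with d/d 3. Results are therefore also given without it. Over all probe sets, 130 passed an adjusted p of 0.05 as higher in d/d uteri and 87 as lower.

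Promoter windows of the members were searched for sites of the factors named above, and 4 are shown here for the members whose mean was lower in d/d by more than 0.5. All 7 measured genes matched a RefSeq promoter entry (build GRCm38.p6), and the windows are the 250 bases before the annotated start. Capitals mark any of 6 motifs found on either strand. These were the CArG box bound by SRF, the cAMP response element TGACGTCA, its core CGTCA, the AP-1 site TGANTCA, the ETS site CCGGAA and the TATA box TATAAA. A TGACGTCA match also holds CGTCA on both strands.
Egr2, chr10:67537316-67537565, plus strand: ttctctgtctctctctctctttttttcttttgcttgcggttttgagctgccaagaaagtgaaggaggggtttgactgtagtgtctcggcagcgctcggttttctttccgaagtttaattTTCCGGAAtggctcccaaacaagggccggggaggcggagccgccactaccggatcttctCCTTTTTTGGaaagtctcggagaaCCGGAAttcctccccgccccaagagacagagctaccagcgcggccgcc
Ier3, chr17:35821463-35821712, plus strand: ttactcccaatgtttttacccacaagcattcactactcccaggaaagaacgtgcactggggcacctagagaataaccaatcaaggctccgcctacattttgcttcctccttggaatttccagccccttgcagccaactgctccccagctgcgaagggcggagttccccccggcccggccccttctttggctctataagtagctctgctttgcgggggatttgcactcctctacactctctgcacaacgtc
Dusp1, chr17:26508473-26508722, minus strand: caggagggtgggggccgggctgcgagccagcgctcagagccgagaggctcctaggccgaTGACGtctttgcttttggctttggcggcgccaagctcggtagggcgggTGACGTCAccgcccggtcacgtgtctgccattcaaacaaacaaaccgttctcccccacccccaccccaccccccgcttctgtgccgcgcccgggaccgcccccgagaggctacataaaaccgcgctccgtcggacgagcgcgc
Fos, chr12:85473640-85473889, plus strand: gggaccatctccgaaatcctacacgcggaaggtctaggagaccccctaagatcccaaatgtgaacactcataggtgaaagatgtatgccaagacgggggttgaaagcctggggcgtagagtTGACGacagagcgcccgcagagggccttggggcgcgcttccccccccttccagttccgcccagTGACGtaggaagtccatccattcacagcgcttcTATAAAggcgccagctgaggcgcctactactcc

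Of 32851 RefSeq promoter windows of the same length, 1.47% held a CArG box, 1.55% TGACGTCA, 17.8% CGTCA, 6.75% TGANTCA, 12% CCGGAA and 12.4% TATAAA. The Egr2 window shown holds a CArG box 72 to 63 bases before the start. The table lists 5 Egr2 starts, some of whose windows overlap, and 4 of these windows hold a CArG box. The one shown was taken because it was the first of those with the most motifs. The Dusp1 window holds TGACGTCA 143 to 136 bases before the start and a further CGTCA at 191 to 187. The Fos window holds CGTCA at 129 to 125 and at 66 to 62, and TATAAA 33 to 28 bases before the start. CGTCA was also in the windows of Fosb and Atf3, and in 3 of the 5 Egr2 windows but not in the one shown. The windows of Ier3 and Jun held none of the 6 motifs as spelled here. TGANTCA was in 0 of the members' windows. These matches describe letters within a short window and say nothing of binding.

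Egr2, Ier3 and Dusp1 had lower values in all d/d uteri than in any f/f uterus, and Fos was lower on average, but no immediate early gene passed the test over all probe sets. Jun and Atf3 overlapped between genotypes, and Fosb lay at background in both. With limma and Benjamini-Hochberg adjustment over all probe sets, 0 of the 8 member probe sets passed in either direction, where 0.210% of all probe sets passed as lower and 0.314% as higher. At an unadjusted p under 0.05, 4 of 8 were lower and 0 higher, against 5.07% and 4.78% of all probe sets. At a looser adjusted p under 0.10, 1 of 8 was lower, against 0.497% of all probe sets. Genotypes were apart with d/d lower for 4 of 8, against 7.47% of all probe sets, and with d/d higher for 0 of 8, against 6.67%. The median log2 difference over the 8, d/d minus f/f, was -0.43, against -0.0041 over all probe sets, and 6 of 8 differences were below 0, as were 51.3% of all.

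**Figure D1:**
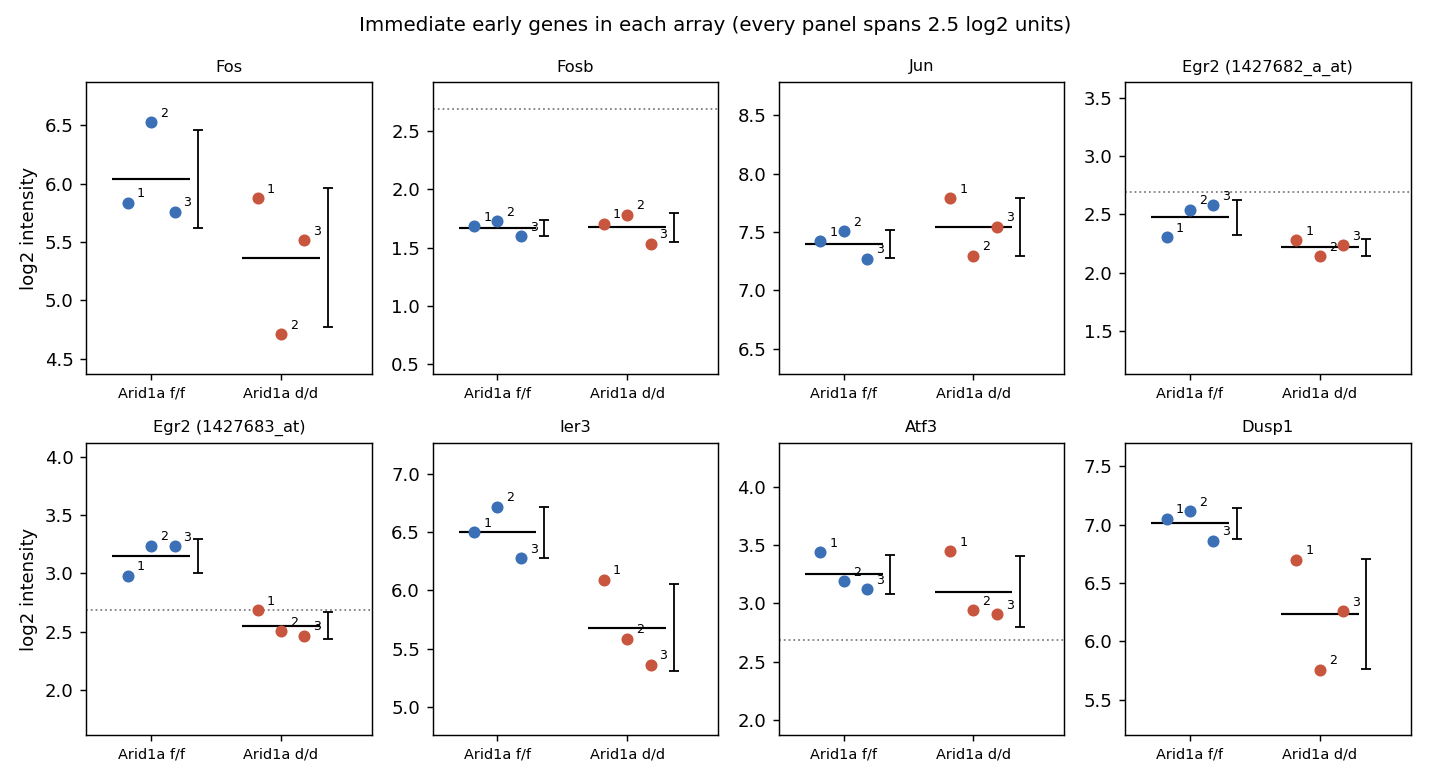
Log2 intensity of the 8 member probe sets in each array (points, numbered by replicate; blue f/f, red d/d), with the genotype mean (line) and SD (bar, n = 3); the dotted line is the median of all probe sets, 2.69. Both Egr2 probe sets, Ier3 and Dusp1 show no overlap between genotypes, while d/d 1 is the highest d/d array in 7 of 8 panels.

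Among the transcription factors, Egr2 encodes a zinc-finger protein of the EGR family. In f/f 1, 2 and 3 its probe set 1427683_at measured 2.98, 3.24 and 3.23, and in d/d 1, 2 and 3 it measured 2.68, 2.51 and 2.47. The genotypes did not overlap, and the nearest arrays were 0.30 apart. The f/f values exceeded 2.69 and the d/d values were at or under it, so background limits the fold. The means were 3.15 ± 0.15 and 2.55 ± 0.12 (SD, n = 3), with a log2 difference of -0.60 ± 0.11 (SE) and a limma adjusted p of 0.0686, the closest of the members to the threshold.

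The other Egr2 probe set, 1427682_a_at, lay below 2.69 on all arrays. In f/f 1, 2 and 3 it measured 2.30, 2.54 and 2.58, and in d/d 1, 2 and 3 it measured 2.28, 2.14 and 2.24. The genotypes did not overlap here either, but the nearest arrays were only 0.023 apart. The log2 difference was -0.25 ± 0.10 (SE; limma adjusted p = 0.457). Both probe sets thus had the same direction, and their difference in size falls where this probe set is at background.

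Fos, the founding member of the AP-1 family, varied most between arrays of a genotype. In f/f 1, 2 and 3 it measured 5.84, 6.53 and 5.76, and in d/d 1, 2 and 3 it measured 5.88, 4.71 and 5.52. Array d/d 1 lay above 2 of the 3 f/f arrays, and d/d 2 lay well below all others. The means were 6.04 ± 0.42 and 5.37 ± 0.60 (SD, n = 3), and the log2 difference was -0.67 ± 0.30 (SE; 95% interval -1.37 to 0.025; limma adjusted p = 0.529). Within the d/d uteri the highest and lowest Fos values differed 2.24-fold, while the genotype means differed 1.60-fold. Without d/d 2 the log2 difference was -0.35, and without d/d 1 it was -0.93.

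Fosb, a paralogue of Fos, lay in the range taken here as background on every array. Its values ran from 1.60 to 1.72 in f/f and from 1.53 to 1.78 in d/d, all below 2.69. The genotypes overlapped fully, with a log2 difference of 0.0043 ± 0.096 (SE; limma adjusted p = 0.994).

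Jun, the AP-1 partner of Fos proteins, did not share the lower d/d values. In f/f 1, 2 and 3 it measured 7.42, 7.51 and 7.27, and in d/d 1, 2 and 3 it measured 7.79, 7.30 and 7.55. The genotypes overlapped, with d/d 1 the highest of the 6 arrays. The log2 difference was 0.15 ± 0.13 (SE; limma adjusted p = 0.814), with a 95% interval of -0.16 to 0.46. Without d/d 1 it was 0.023, and without d/d 2 it was 0.27.

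Atf3, a stress-induced bZIP factor, overlapped as well. Values of 3.44, 3.19 and 3.12 were read for f/f 1, 2 and 3, and values of 3.45, 2.94 and 2.91 for d/d 1, 2 and 3. Both arrays numbered 1 were the highest of their genotype, and d/d 2 and d/d 3 lay below all f/f arrays. The log2 difference was -0.15 ± 0.16 (SE; 95% interval -0.52 to 0.22; limma adjusted p = 0.841). It was -0.32 without d/d 1 and between -0.21 and -0.054 with any other single array left out.

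Among the members that are not transcription factors, Ier3, a stress-inducible regulator of cell survival, had the largest difference. In f/f 1, 2 and 3 it measured 6.50, 6.72 and 6.27, and in d/d 1, 2 and 3 it measured 6.09, 5.58 and 5.36. No d/d array reached the lowest f/f array, and the nearest were 0.18 apart. The means were 6.50 ± 0.22 and 5.68 ± 0.37 (SD, n = 3), a log2 difference of -0.82 ± 0.19 (SE), so d/d uteri held 56.7% of the f/f level. The limma adjusted p was 0.150, so it did not pass.

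Dusp1, a phosphatase that inactivates MAP kinases and so shuts off the signal that induces it, was close behind. In f/f 1, 2 and 3 it measured 7.05, 7.11 and 6.86, and in d/d 1, 2 and 3 it measured 6.70, 5.76 and 6.26. The genotypes were again apart, by 0.16 between the nearest arrays, and the 3 d/d arrays were spread over 0.94. The means were 7.01 ± 0.13 and 6.24 ± 0.47 (SD, n = 3), with a log2 difference of -0.77 ± 0.21 (SE; limma adjusted p = 0.220). In d/d uteri it stood at 58.5% of its f/f level.

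**Figure D2:**
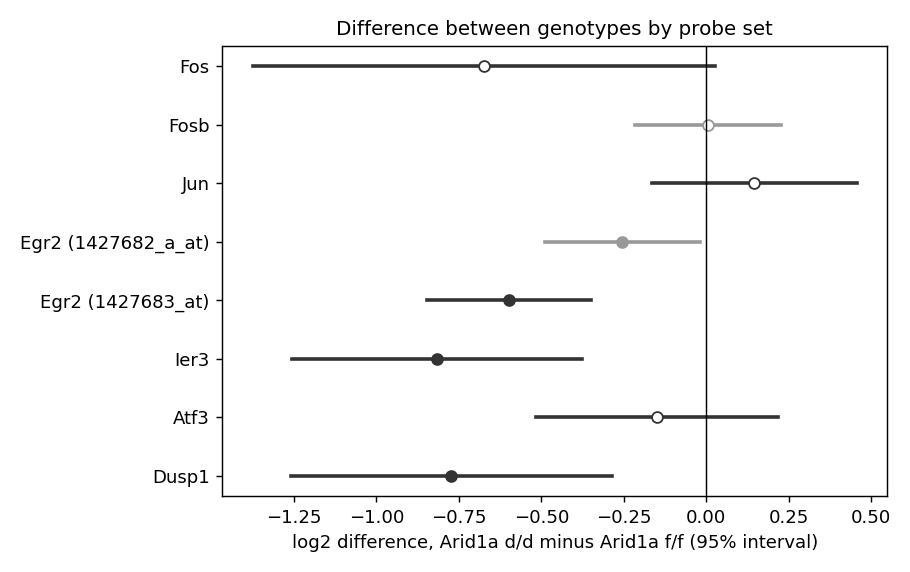
Log2 difference between genotypes (Arid1a d/d minus Arid1a f/f) for each member probe set with its 95% interval from limma, not adjusted for the number of probe sets; filled points are probe sets whose genotypes do not overlap and grey marks a mean below 2.69. Ier3, Dusp1 and Egr2 lie farthest from 0 relative to their intervals, while the intervals of Fos, Fosb, Jun and Atf3 include 0.

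Calls for the members turned on array d/d 1. Without it, 3 of the 8 probe sets passed as lower, against 1.35% of all probe sets in the same fit. These were Ier3 at -1.02 (limma adjusted p = 0.0116), Dusp1 at -1.00 (0.0174) and Egr2 1427683_at at -0.66 (0.0259). Leaving out any other single array gave 0 of 8. Without both arrays numbered 1, Ier3 at -1.02 (limma adjusted p = 0.0394) and Egr2 at -0.75 (0.0255) passed, against 0.867% of all probe sets as lower, while Dusp1 at -0.98 had 0.0562. With the replicate number as a block, Ier3 alone passed (limma adjusted p = 0.0481), against 0.674% of all probe sets as lower. With array weights Egr2 1427683_at passed at -0.62 (limma adjusted p = 0.0444), against 0.355%. The median log2 difference over the 8 probe sets was -0.49 without d/d 1 and ranged from -0.51 to -0.28 over the 6 fits with 1 array left out.

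The spread between arrays of one genotype differed widely among the members. Fos had a pooled within-genotype SD of 0.52, which is 3.43 times the median of the 2071 probe sets in the same of 20 equal groups by level and at percentile 98.02 among them. Ier3 falls in the same group, which spans 5.64 to 6.20. For Dusp1 the SD was 0.35, 2.56 times the median at its level and at percentile 94.25, and for Ier3 it was 0.31, 2.04 times and at percentile 90.1. Atf3 and Jun lay at percentiles 79.86 and 72.24 with SDs of 0.24 and 0.19. Egr2 1427683_at, with 0.13, and Fosb, with 0.10, lay at percentiles 38.68 and 42.25, and Egr2 1427682_a_at at percentile 35.15. Over the 8 probe sets the median SD was 0.22, against 0.13 over all probe sets. Without d/d 1 these medians were 0.14 and 0.13.

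**Figure D3:**
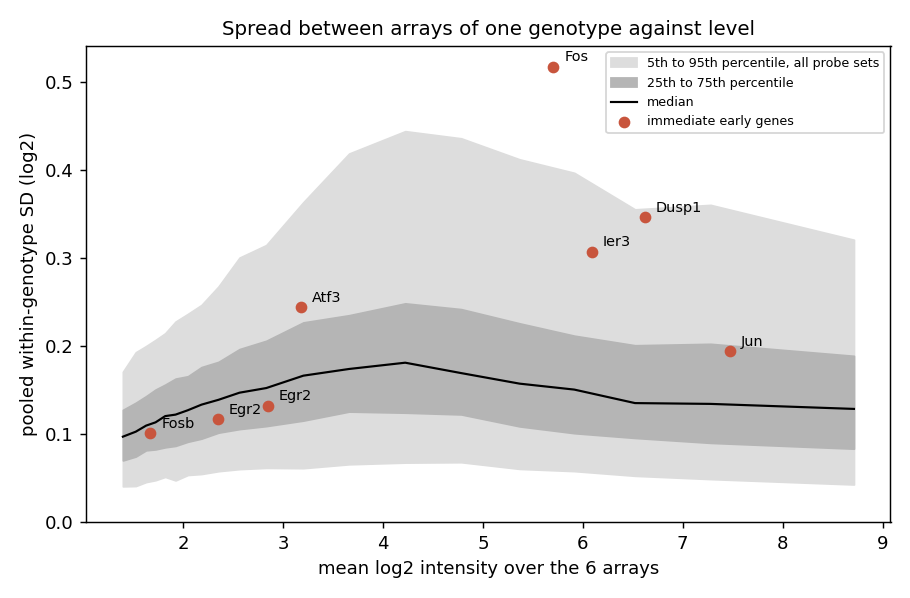
Pooled within-genotype SD (log2) against mean log2 intensity for the member probe sets (red), over bands of all 41420 probe sets in 20 groups of level (dark band 25th to 75th percentile, light band 5th to 95th, line the median). Fos lies above the light band, Dusp1 and Ier3 near its top, and both Egr2 probe sets inside the dark band.

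The d/d arrays were more spread than the f/f arrays for 6 of the 8 probe sets, as they were for 51.3% of all probe sets. The median SD over the members was 0.15 in f/f and 0.28 in d/d, against 0.12 in both genotypes over all probe sets. The exceptions were the 2 Egr2 probe sets, with 0.15 in f/f against 0.12 and 0.071 in d/d. No test was made of this difference in spread.

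The members at or above 2.69 on average, which were Fos, Jun, Egr2 1427683_at, Ier3, Atf3 and Dusp1, took largely the same order within a genotype. Array f/f 2 was the highest f/f array for 5 of the 6 and f/f 3 the lowest for 5 of the 6. Among d/d uteri, d/d 1 was the highest for 6 of 6, with d/d 2 and d/d 3 the lowest for 3 each. How often these orders held over all probe sets was not counted. The mean of the 6, each taken relative to its own average over the arrays, stood at 0.22, 0.40 and 0.10 for f/f 1, 2 and 3, and at 0.11, -0.52 and -0.31 for d/d 1, 2 and 3. On this measure d/d 1 lay level with f/f 3, and the gap between d/d 1 and d/d 2 exceeded that between f/f 2 and d/d 1. As these 6 genes were read on the same 6 arrays, they are not independent of one another.

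**Figure D4:**
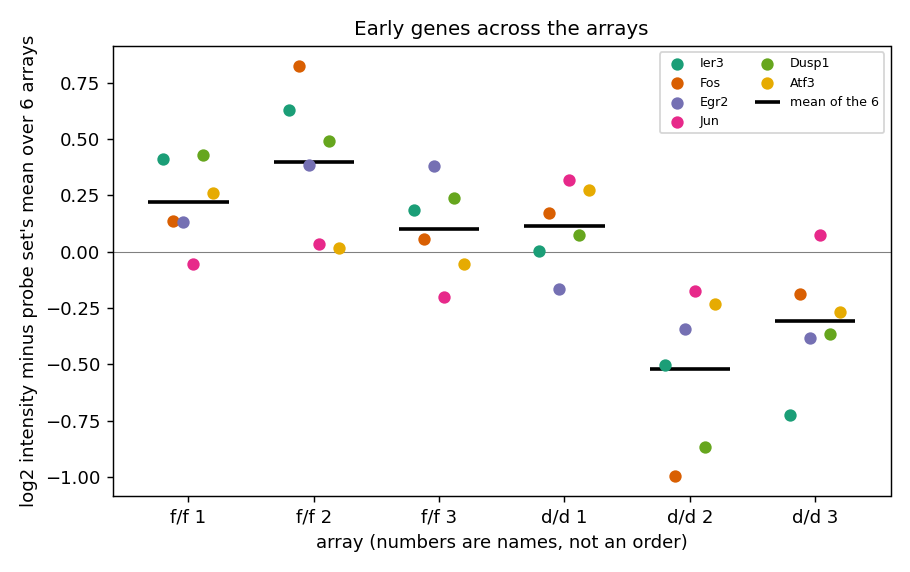
Log2 intensity of the 6 members at or above the median level, each minus its own mean over the 6 arrays, by array (points coloured by gene; black bars are the mean of the 6). The bars lie at 0.22, 0.40 and 0.10 for f/f 1, 2 and 3, and at 0.11, -0.52 and -0.31 for d/d 1, 2 and 3.

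The 5 genes whose profile over the 6 arrays lay nearest this mean, by root mean square difference of mean-centred log2 values, were Map3k20 (0.057), Frmd6 (0.057), Ddit4l (0.059), Creb5 (0.061) and Fitm2 (0.070). The median over the 10552 genes compared was 0.34. Map3k20 encodes a stress-activated MAP kinase kinase kinase and Creb5 a bZIP factor of the CREB and ATF family. The log2 differences between genotypes were -0.50 for Map3k20, -0.43 for Frmd6, -0.43 for Ddit4l, -0.46 for Creb5 and -0.45 for Fitm2. None of the 5 passed over genes (limma adjusted p from 0.195 to 0.372). They were picked from many genes for likeness over 6 arrays, so no shared function is read from them.

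No other early response gene passed the test. With each gene read by its brightest probe set, 0 of 30 measured rose and 0 fell, against 0.630% and 0.512% of all 16813 genes. Of the 30, 21 had differences below 0 and the median was -0.12, against -0.011 and 53.4% below 0 over all genes. Rhob, a small GTPase, had the smallest p, at -0.71 ± 0.15 (SE; limma adjusted p = 0.0801), and Plk2, a polo-like kinase, followed at -0.39 ± 0.083 (0.0865). Genotypes were apart for 6 of the 30, with d/d lower for 3 and higher for 3, against 9.42% and 7.10% of all genes.

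Of 9 measured AP-1 partners, proteins that can pair with Fos or Jun or share their sites, 1 fell and 0 rose. Over all genes 0.512% fell and 0.630% rose, and the counts for the lists below stand beside these shares too. Batf3, which works mainly in immune cells, fell: f/f 1, 2 and 3 read 4.03, 4.12 and 3.91, while d/d 1, 2 and 3 read 3.42, 3.57 and 3.48. The difference of -0.53 ± 0.093 (log2, SE) had an adjusted p in limma of 0.0468 over genes and 0.0612 over probe sets, so it passed over genes alone. With 1 array left out it held in 1 of 6 fits, the one without d/d 1, and the adjusted p in the other fits was 0.1001 to 0.176. The call also ended with an intensity trend and robust estimation (limma adjusted p = 0.0691) and without both arrays numbered 1 (0.0881). Fosl2, a Fos relative, stood at 0.42 ± 0.12 (SE; limma adjusted p = 0.187), with all d/d arrays above all f/f arrays. Batf stood at 0.17 (0.593).

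The upstream kinases and factors that switch the early genes on had 0 of 13 measured genes past the threshold in either direction and a median log2 difference of -0.035. Crem, a CREB relative, stood at -0.34 and Rps6ka3, a kinase of the ERK cascade, at 0.31 (limma adjusted p of 0.258 and 0.268). Feedback regulators, which include other MAP kinase phosphatases, EGR corepressors and mRNA decay factors, had 0 of 13 past the threshold, with 9 below 0 and a median of -0.22. Spry2, an inhibitor of receptor tyrosine kinase signalling, stood at 0.42 and Nab1, a corepressor that binds EGR proteins, at -0.29 (limma adjusted p of 0.0930 and 0.229).

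Heat shock and hypoxia genes, which also respond to handling, had medians near 0, with single genes on both sides of it. Handling was not tested. Of 10 measured heat shock genes 0 passed, 5 were below 0 and 5 above, and the median was 0.0026. Genotypes were apart for 0 of the 10, where 9.42% of all genes had d/d lower and 7.10% d/d higher. With 10 genes that count says little. Hspa1a, an inducible HSP70, stood at -0.48 and Hsph1 at -0.32 (limma adjusted p of 0.377 and 0.713). The summed intensity of the 10 heat shock genes ran from 6855 to 7387 in f/f and from 6729 to 7353 in d/d. The brightest genes weigh most in this sum, and it says little of Hspa1a: Hspa8 averaged 11.2 in f/f and Hspa1a 7.26. Of 9 hypoxia genes 0 passed, 4 were below 0 and 5 above, and the median was 0.019. Pdk1 stood at 0.40 and Slc2a1 at 0.33 (limma adjusted p of 0.329 and 0.477). Genotypes were apart for 1 of the 9, Pdk1, with d/d higher.

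**Figure D5:**
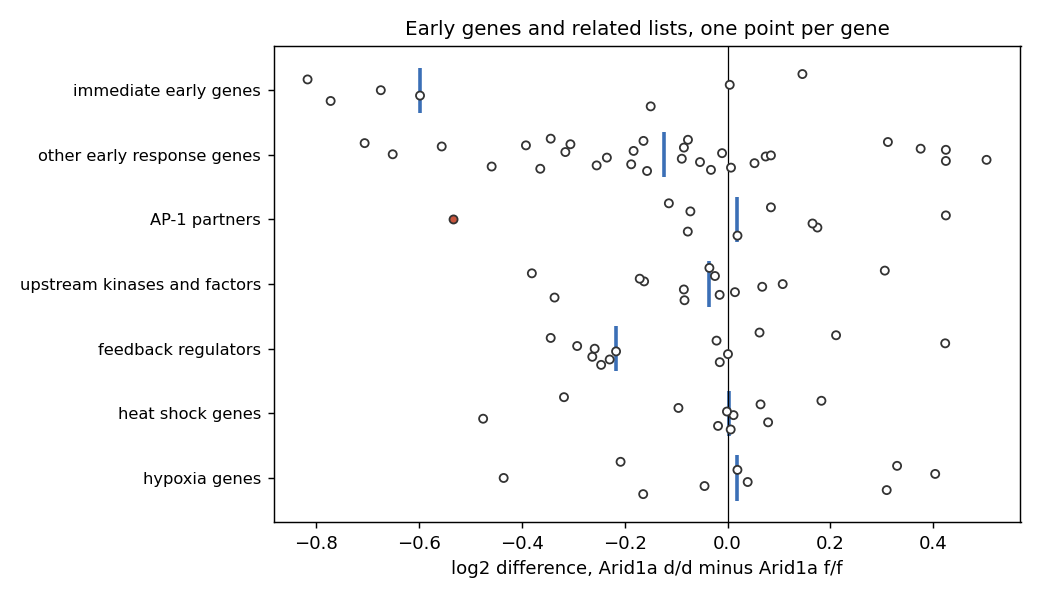
Log2 difference (Arid1a d/d minus Arid1a f/f) of each measured gene by its brightest probe set, for the immediate early genes and 6 related lists; blue bars are medians and the filled point, Batf3, is the gene with a limma adjusted p under 0.05. The median of the immediate early genes is -0.60 by gene, against -0.12 for other early response genes and values between -0.22 and 0.019 for the rest shown. Cell type marker lists are not drawn, and among them the medians were -0.67 for endothelium, -1.18 for fat and 0.61 for epithelium.

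The summed levels of several cell type marker lists also differed between the genotypes, although only Cdh1 and Thy1 passed, and their part in the results was not tested. In whole tissue, fewer cells of a type and less RNA per cell cannot be told apart. Of 7 epithelial markers 1 rose, Cdh1 at 1.00 (limma adjusted p = 0.0314), against 0.630% of all genes. The epithelial summed intensity ran from 1956 to 2311 in f/f and from 3032 to 3678 in d/d. Of 9 stromal markers 1 fell, Thy1 at -1.06 (limma adjusted p = 0.0155), against 0.512% of all genes. The stromal sum was 17410 to 19116 in f/f and 14177 to 16513 in d/d. With 1 array left out, Cdh1 passed in 1 of 6 fits, without d/d 1, and Thy1 in 2 of 6, without f/f 1 or without d/d 1. Endothelial, fat and smooth muscle markers had 0 of 5, 0 of 6 and 0 of 7 past the threshold. Their summed intensities were 725 to 777 against 421 to 581, 591 to 924 against 196 to 482, and 3930 to 4437 against 3167 to 4172. Genotypes were apart with d/d lower for 3, 6 and 2 of them, and for 4 of the 9 stromal markers, against 9.42% of all genes. For 5 of the 7 epithelial markers d/d was higher without overlap, against 7.10%. Median log2 differences were -0.67 for endothelium, -1.18 for fat, -0.21 for smooth muscle, -0.31 for stroma and 0.61 for epithelium. The leukocyte sum was 476 to 495 against 451 to 472, with 0 of 8 passing. Of these 8 markers 4 were below 0 and 4 above, with a median of -0.033, and the brightest weigh most in the sum. The blood and mesothelium lists, with 0 of 3 and 0 of 4 passing, overlapped between genotypes.

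Within the d/d uteri the summed intensities of 5 marker lists ran in the same order as the members' mean, with d/d 1 highest and d/d 2 lowest. These were stroma (16513, 14177 and 15223 in d/d 1, 2 and 3), smooth muscle (4172, 3167 and 3747), endothelium (581, 421 and 489), fat (482, 196 and 234) and mesothelium (91.0, 71.1 and 89.4). The brightest genes weigh most in these sums, and none of the 5 lists held this order in every marker. The epithelial sum ran the other way (3032, 3678 and 3310). The leukocyte sum (472, 452 and 451) and the blood sum (15.1, 13.6 and 15.2) took neither order. The order was not particular to cell type markers, as the summed intensity of the other early response genes also took it (3183, 2498 and 2556). Array d/d 1 had the highest d/d sum of the hypoxia genes (920, 709 and 621) and the heat shock genes (7353, 7119 and 6729) too. The same held for the AP-1 partners, the upstream kinases and factors and the feedback regulators. Within the f/f uteri the lists divided. Array f/f 2, where the members' mean was highest, had the lowest sums of stroma, smooth muscle, endothelium and fat. Array f/f 3, where that mean was lowest, had the highest. The sums of the other early response genes (3060, 3210 and 2819 in f/f 1, 2 and 3) and of the epithelial markers (2147, 2311 and 1956) took the members' order.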

How the data were processed

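The authors deposited linear intensity values, 1 for every probe set on every array, and per the submitters' processing notes it was made with RMA, which corrects background, normalizes across arrays and summarises probes. Version, settings and genome build are not given in the sources used here. The analysis had been planned for log2 values, so log2 was taken of the 41420 probe sets with no added constant. A 2-sided limma fit (version 3.58.1, R 4.3.3) with no covariate compared the genotypes (lmFit, eBayes), with Benjamini-Hochberg adjustment over all probe sets, or over 16813 genes by their brightest probe set, at a threshold of 0.05. Promoters were searched with Python 3.11.15.

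The members and lists were chosen with earlier results of these data known. All member probe sets are named, up to 3 genes of smallest p per other list (2 where none passed), every listed gene that passed, and the 5 genes of nearest profile. Of the cell type lists only passing genes are named.

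Simulated on 41420 probe sets with the spread of these arrays, of 50 probe sets each, the fit found 19 with a 1.5-fold change, 31 with a 2-fold change, 48 with a 4-fold change and 49 with an 8-fold change. It made 160 calls, 13 of them false. The number of arrays limits the precision. Alternatives were another variance model, array weights, renormalization, centring, filters, a replicate block, arrays left out, gene summaries and other thresholds.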

Additional observations from a re-analysis of the deposited data

How the results depend on the processing

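The count of member probe sets past the threshold, 0, became 1 with array weights, 1 with the replicate block (Ier3, limma adjusted p = 0.0481), 2 without both arrays numbered 1, 1 at an adjusted p under 0.10 (against 0.497% of all probe sets) and 4 at an unadjusted p under 0.05, each lower in d/d, and lay between 0 and 3 with 1 array left out. It stayed at 0 with an intensity trend, repeated quantile normalization, median centring, without dim or _x_at probe sets and by gene. The 3 listed genes past the threshold became 7 with an intensity trend and robust estimation, 15 with array weights, 9 with the replicate block, 17 without both arrays numbered 1 and 0 to 25 with 1 array left out. No share of all genes called in the same fits stands beside these listed counts. The 217 probe sets called over the whole array became 280 with an intensity trend and robust estimation and 329 with array weights. They became 574 with the block, 657 without both arrays numbered 1, and 37 to 971 with 1 array left out. Apart from the looser thresholds, the cause was not tested. The titles' numbers were not treated as pairs in the main fit, since the labels do not say that they pair arrays. Arrays sharing the number 1, 2 or 3 had deviations correlated at 0.461, 0.023 and 0.178. Arrays of unlike number were not compared in this way, so these values do not decide whether arrays were paired. Every member but Fosb kept its direction in each setting. Fosb, at background, changed sign without f/f 3 (-0.031), d/d 1 (-0.012), d/d 2 (-0.050) and both arrays numbered 1 (-0.0038), within -0.050 to 0.074 with 1 array left out. Probe sets at background, such as Fosb and Egr2 1427682_a_at, can show little.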
